A study of Homo sapiens with 18 samples.

Results

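Tumours grown in mice from 2 human neuroblastoma cell lines, SKNAS (SK-N-AS) and LAN-1, were compared in their control arm. The comparison rests on the 3 libraries titled SKNAS control and the 3 titled LAN-1 control, 6 of the 18 bulk RNA libraries of the series. The other libraries are 3 KELLY controls and 3 Hmx1 libraries of each line, and only the Hmx1 libraries of SKNAS and LAN-1 and the KELLY controls are cited below, as reference levels. All 18 are xenografts of an established line, which is 1 cell population, and the labels enter "None" for strain and for treatment in every group. They give no genotype for SKNAS or LAN-1, no host age or sex, and no account of what the control tumours carried or what the Hmx1 arm received. Nor do they say that the libraries of a group came from separate mice, so the p-values below measure the spread between libraries, which may be technical.

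Neuroblastoma arises from sympathetic progenitors of the neural crest, and its cells can hold an adrenergic (noradrenergic) state, driven by HAND2, GATA3 and related factors, or a mesenchymal state, marked by PRRX1, AP-1 and YAP/TAZ activity. LAN-1 is known as a MYCN-amplified line with an activating ALK mutation. SK-N-AS is known as a line without MYCN amplification that carries an activating NRAS mutation. Amplified MYCN drives ribosome, nucleotide and amino acid synthesis, and MYCN-amplified tumours are known for low antigen presentation.

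Levels are given as scaled TPM, that is, deposited TPM (a length-normalized share of transcripts) multiplied by 1 factor per library so that the genes expressed in all 6 libraries match on the median. Differences are log2(scaled TPM + 1) in SKNAS minus the same in LAN-1, with their standard error (SE), and understate changes of low genes. A gene is called where its limma p, adjusted over all 16569 genes tested, lies under 0.05. Mitochondrial genes took 17.7% ± 3.07 of the deposited TPM in SKNAS and 6.21% ± 0.431 in LAN-1 (SD, n = 3 each), with no overlap (exact two-sided permutation p = 0.1, the smallest that 3 against 3 libraries allow). Sequencing depth cannot be read from TPM and is unknown here. Between 14921 and 16116 genes reached 1 TPM in a library. Pearson's r across genes was 0.979 to 0.988 between libraries of a line and 0.798 to 0.807 between lines.

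The lines differed in most of what they expressed. Of 16569 genes tested, 5490 were higher in SKNAS (33.1%) and 5094 were lower (30.7%), so 63.9% of all genes were called, and every list below has to be read against those shares. A gene low in 1 line passes the minimum of 1 TPM in 3 libraries through the other line alone, so counts over the tested members of a list describe that list and support nothing more. Members below that minimum were left out, and they numbered 29 of 39 HOX genes, 15 of 25 cancer-testis genes, 11 of 19 chemokines and cytokines, 9 of 15 neural crest genes, 8 of 27 integrins and laminins, 7 of 28 mesenchymal factors, 7 of 10 MHC class II genes and at most 6 in each other list of tumour genes. Calls of at least 1 on the log2 scale numbered 2614 higher (15.8%) and 2511 lower (15.2%). The groups did not overlap for 11461 genes (69.2%). Without the scaling 6469 genes were higher and 4170 lower, so the share of calls that were higher moved from 51.9% to 60.8%, and to 69.1% when mitochondrial genes were also removed, with the median of all genes moving from 0.05 to 0.20 and 0.37. Directions of gene groups are therefore given with the scaling under which they turn, where they do.

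**Figure D1:**
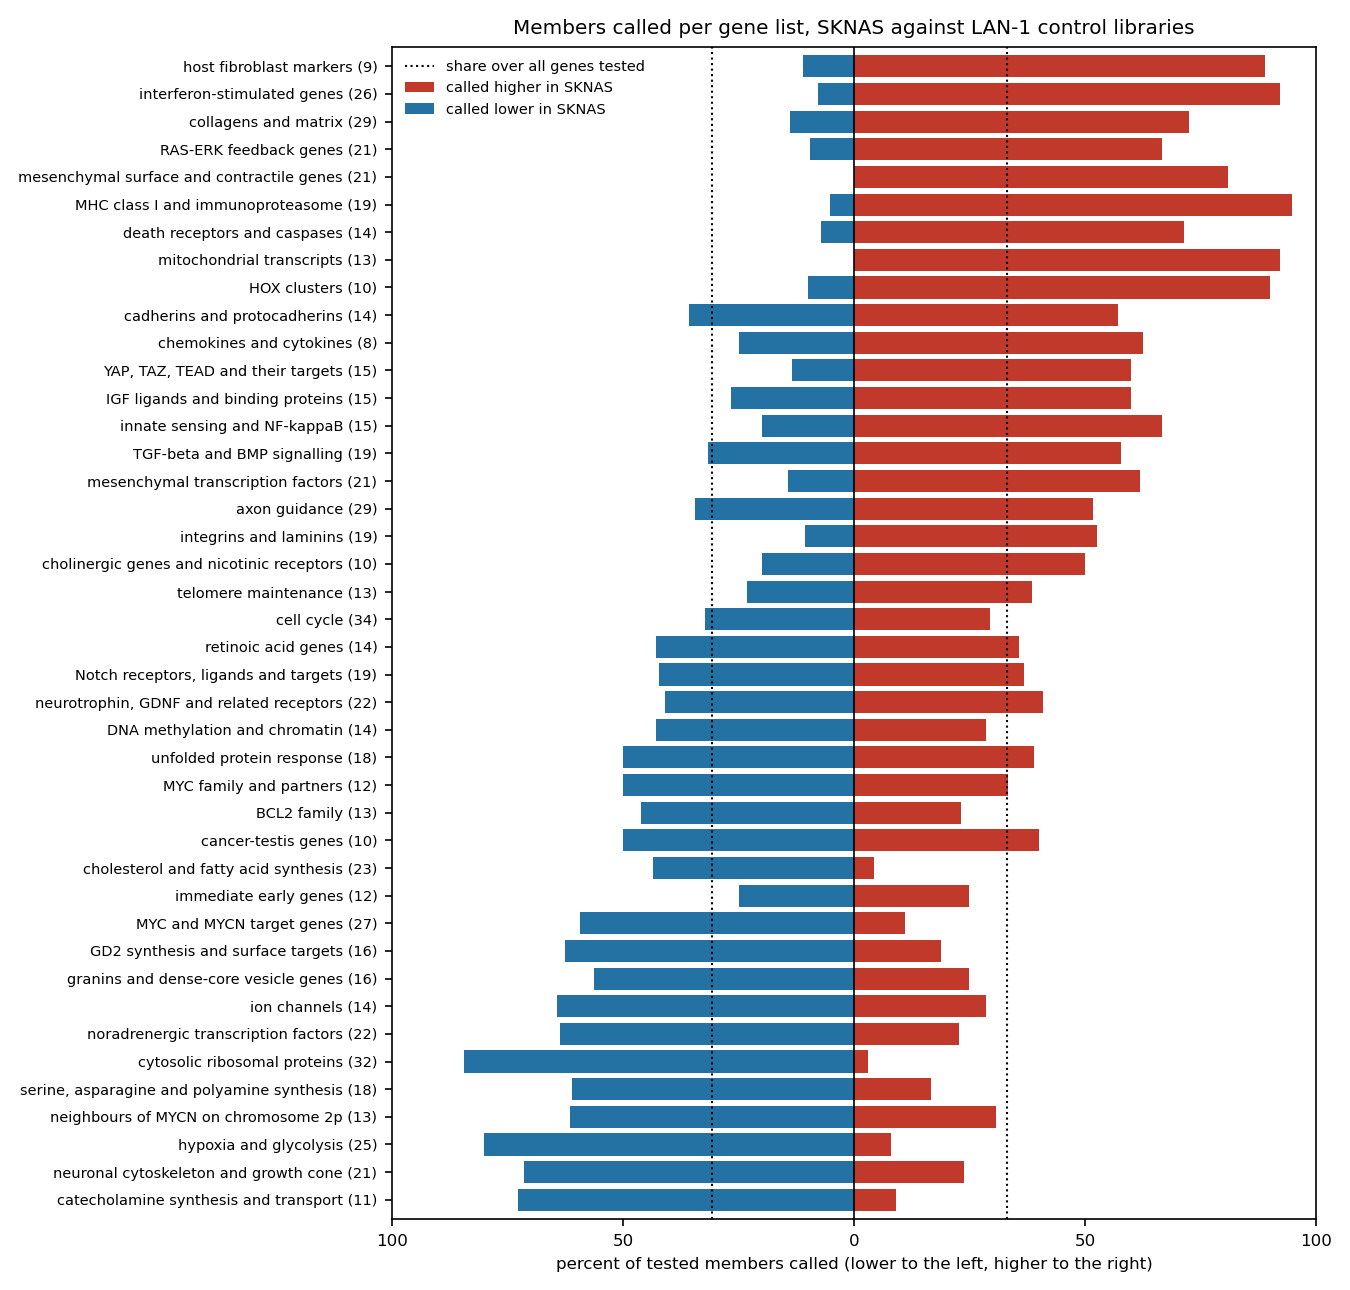
Percent of tested members called higher in SKNAS (right, red) or lower (left, blue) for gene lists with at least 8 tested members, whose number stands in brackets. A list that is not reported here was left out. Dotted lines are the shares over all genes tested, 33.1% and 30.7%. MHC class I genes, interferon-stimulated genes and mitochondrial transcripts lie furthest right by share, and ribosomal proteins and hypoxia genes furthest left.

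Most of the genes with the largest differences were at or near 0 in the other line. Below, 3 values joined together are the levels in the 3 libraries of a line, and a number after "log2" is a log2 difference, given only for genes that were called unless said otherwise. CRABP1, a cytoplasmic carrier of retinoic acid, stood at 1489.7, 1356 and 1228 in the SKNAS libraries and at 0, 0 and 0.575 in LAN-1 (log2 difference 10.19, SE 0.19, adjusted p = 1.28e-07). MEST, an imprinted gene, stood at 585, 535 and 511 against 0.769, 0.844 and 0.4001 (log2 difference 8.36, SE 0.13, adjusted p = 9.94e-08), and TM4SF4, a tetraspan membrane protein, at 319, 257 and 246 against 0, 0 and 0.0583 (log2 difference 8.07, SE 0.13, adjusted p = 9.94e-08). Each was abundant in all 3 SKNAS libraries and at or below 1 scaled TPM in all 3 LAN-1 libraries. TM4SF1, a relative of TM4SF4, was at 175, 143 and 135 in SKNAS and was listed at 0 in LAN-1, as were PLP2 (228, 243 and 223), IFI16 (214, 170.1 and 185), a sensor of foreign DNA, BRINP3 (166, 117.1 and 155), GTSF1 (144, 128 and 118.4) and MYOC (152, 159 and 88.9). The first 12 also held COL3A1, a fibrillar collagen, the retinoid carrier CRABP2 and the cancer-testis gene MAGEA1. KELLY controls, on a scaling over all 18 libraries, had CRABP1 at 405 to 903, GTSF1 at 118.9 to 156 and MEST at 139 to 157 over 3 libraries, and listed IFI16 and both TM4SF genes at 0.

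On the LAN-1 side MYCN led. MYCN (ENSG00000134323, GRCh37 chromosome 2, 16080686 to 16087129) stood at 0, 0.0885 and 0.0461 scaled TPM in SKNAS and at 873, 906 and 975 in LAN-1 (log2 difference -9.78, SE 0.09, adjusted p = 2.09e-08). It was followed by NNAT, an imprinted neuronal membrane protein, at 0, 1.58 and 0 against 164, 162 and 149 (log2 difference -6.86, SE 0.36, adjusted p = 4.25e-06). FGF13, a regulator of sodium channels, was listed at 0 in SKNAS and stood at 110.2, 99.5 and 93.5 in LAN-1. CRH, the corticotropin-releasing hormone, was likewise at 0 against 83.2, 91.6 and 108.9, and FEV, a transcription factor of serotonergic neurons, at 0 against 48.4, 52.4 and 46.7. ZNF22, DDX1, TUBB4A, NUDT11, TOX3, B3GAT2 and GDAP1L1 completed the 12, with differences from -6.09 to -5.44. TUBB4A, a neuronal tubulin, was at 0.158, 0.150 and 0.256 against 58.7, 63.9 and 55.7. In KELLY controls FEV was at 40.5 to 144, GDAP1L1 109.3 to 253 and ZNF22 69.3 to 92.3, whereas NNAT was at 0 to 1.35, TUBB4A at 0.206 to 0.610 and TOX3 at 4.46 to 7.16.

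LAN-1 expressed most noradrenergic factors more strongly. Of 22 noradrenergic transcription factors tested, 14 were lower in SKNAS, 5 were higher and 3 did not pass, with a median difference of -0.87 against 0.05 over all genes. HAND2, a bHLH factor of sympathetic neurons, was at 261, 274 and 295 scaled TPM in SKNAS and 340.2, 353 and 358 in LAN-1 (log2 difference -0.34, SE 0.08, adjusted p = 0.00735). The difference was small, with no overlap between the lines.

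The GATA factors differed far more. GATA2 was at 5.78, 5.71 and 6.16 scaled TPM in SKNAS and 229, 203 and 222 in LAN-1 (log2 difference -4.99, SE 0.088, adjusted p = 1.07e-07), and GATA3 at 5.47, 5.34 and 5.68 and 112.2, 115.3 and 123.4 (log2 difference -4.18, SE 0.088, adjusted p = 1.51e-07). PHOX2A, a homeobox factor of noradrenergic neurons, stood at 29.2, 31.5 and 34.5 against 201, 206 and 229 (log2 difference -2.70, SE 0.10, adjusted p = 7.68e-07). ISL1, a LIM homeodomain factor of sympathetic neurons, stood at 31.8, 32.2 and 29.1 against 194, 199 and 204 (log2 difference -2.64, SE 0.079, adjusted p = 4.22e-07). SIX3 (log2 -4.01), SATB1 (log2 -2.88), INSM2 (log2 -2.63), HAND1 (log2 -1.43), ZNF536 (log2 -1.21) and TBX2 (log2 -1.019) were lower in SKNAS as well, and LMO1 (log2 -0.94) and SOX11 (log2 -0.81) by less. In the other direction TFAP2B, a neural crest and sympathetic AP-2 factor, was at 21.9, 25.8 and 24.2 in SKNAS and 0.719, 1.016 and 1.05 in LAN-1 (log2 difference 3.70, SE 0.13, adjusted p = 7.98e-07). INSM1 (log2 1.021), PBX3 (log2 0.71) and KLF7 (log2 0.38) were also higher in SKNAS. MEIS1 (log2 0.28, adjusted p = 0.219), MEIS2 (log2 -0.34, 0.0736) and EYA1 (log2 0.40, 0.0624) did not pass. MEIS2 was called lower without the third LAN-1 library (adjusted p = 0.0259) and EYA1 higher without the second SKNAS library (0.00377). The call of HAND2 was lost without the scaling (adjusted p = 0.134), that of PBX3 when any of 4 libraries was left out (adjusted p up to 0.0962) and that of KLF7 without the second LAN-1 library (0.0516).

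The enzymes that make and break down catecholamines were mostly lower in SKNAS as well. Of 11 tested genes, 8 were lower in SKNAS and 1 was higher (median -1.90). TH, the rate-limiting enzyme, stood at 2.88, 2.53 and 2.71 in SKNAS and 92.9, 97.6 and 62.3 in LAN-1 (log2 difference -4.50, SE 0.18, adjusted p = 1.26e-06). DBH, which converts dopamine to noradrenaline, stood at 125, 98.0 and 130.3 and 558, 553 and 621 (log2 difference -2.29, SE 0.12, adjusted p = 5.13e-06). DDC, which makes dopamine, stood at 17.8, 26.2 and 16.9 and 79.8, 87.8 and 65.0 (log2 difference -1.90, SE 0.19, adjusted p = 0.000104). DBH was thus still well expressed in SKNAS, whereas TH was near 3 scaled TPM. The vesicular transporter SLC18A1 (log2 -3.58), the noradrenaline transporter SLC6A2 (log2 -3.50), the breakdown enzyme MAOA (log2 -1.97) and the pterin enzymes QDPR (log2 -1.07) and PTS (log2 -0.74) were lower too. CYB561, which feeds electrons to DBH, was the exception at 62.4, 63.3 and 46.4 against 22.7, 21.9 and 21.7 (log2 difference 1.32, SE 0.13, adjusted p = 0.000113). GCH1 did not pass (adjusted p = 0.214), but was called lower without the third SKNAS library (adjusted p = 0.0133). KELLY controls were above both lines for TH (452 to 1109), DBH (1009 to 1359) and DDC (624 to 921).

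Vesicle and neuronal genes were split, with more of them lower in SKNAS. Among 16 granin and dense-core vesicle genes, 9 were lower and 4 higher. CPE, the carboxypeptidase that trims prohormones, was at 357, 326 and 341 scaled TPM in SKNAS and 51.6, 50.5 and 52.7 in LAN-1 (log2 difference 2.70, SE 0.074, adjusted p = 3.29e-07). The calcium sensor SYT1 was at 142, 129.8 and 144 against 24.4, 26.3 and 22.9 (log2 difference 2.45, SE 0.089, adjusted p = 8.54e-07). PCSK2, a prohormone convertase, was listed at 0 in SKNAS and stood at 9.04, 9.33 and 8.20 in LAN-1, while PTPRN2 (log2 -3.63), CADPS (log2 -3.58) and PCSK1N (log2 -1.99) were lower in SKNAS. CHGA, the granin used to define chromaffin and sympathetic tumours, stood at 648, 710.4 and 956 against 2735, 2807 and 2438 (log2 difference -1.80, SE 0.16, adjusted p = 5.55e-05).

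Of 21 neuronal cytoskeleton and growth cone genes, 15 were lower in SKNAS and 5 higher (median -1.53). The lowest were NSG1 (log2 -5.02), MAPT, the tau protein (log2 -3.94), CRMP1 (log2 -3.94), the intermediate filament INA (log2 -3.42) and TUBB2B (log2 -2.80). Against them DPYSL3, another growth cone protein of the CRMP family, was at 262, 269 and 267 scaled TPM in SKNAS and 14.4, 11.7 and 13.8 in LAN-1 (log2 difference 4.23, SE 0.10, adjusted p = 1.75e-07), which left 2 members of that family in opposite directions. Cholinergic genes leaned the other way, with 5 of 10 higher and 2 lower. SLC5A7, the choline transporter, was at 7.81, 10.3 and 7.20 against 0, 0.0231 and 0 (log2 difference 3.22, SE 0.15, adjusted p = 2.8e-06), and CHAT, the enzyme that makes acetylcholine, at 1.96, 1.88 and 3.23 against 0.144, 0.186 and 0.216 (log2 difference 1.48, SE 0.17, adjusted p = 0.000235). ACHE, which breaks it down, was lower (log2 -1.48). LHX8, a LIM factor of cholinergic neurons, was at 5.17, 3.46 and 5.78 against 2.54, 2.46 and 2.75 (log2 difference 0.67, SE 0.18, adjusted p = 0.013).

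**Figure D2:**
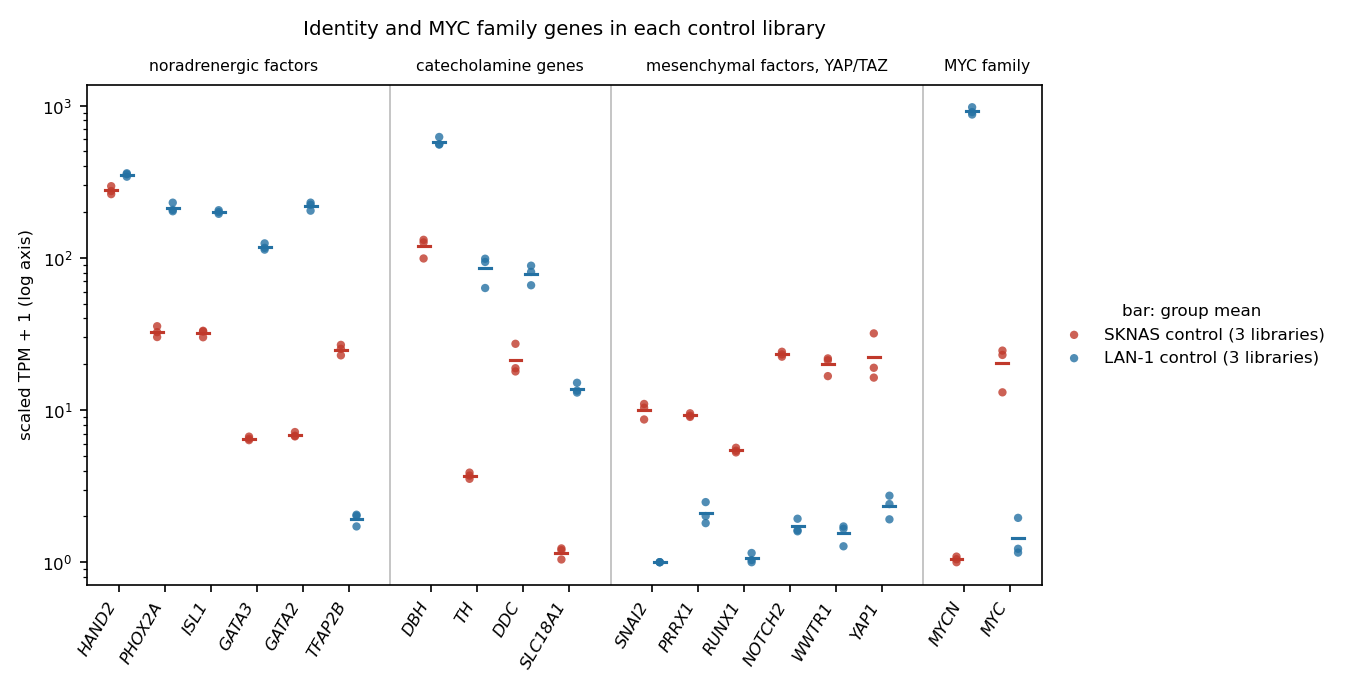
Scaled TPM plus 1 on a log axis for each of the 3 SKNAS (red) and 3 LAN-1 (blue) control libraries, with short bars at the group means, for noradrenergic factors, catecholamine genes, mesenchymal factors with YAP and TAZ, and the MYC family. HAND2 is at 261 or more in every library, GATA2 and GATA3 are under 7 in SKNAS and over 110 in LAN-1, and MYCN and MYC are each high in the other line.

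Most of the mesenchymal factors tested were higher in SKNAS. Of 21 mesenchymal transcription factors tested, 13 were higher in SKNAS, 3 were lower and 5 did not pass, while 7 more, among them FOSL1 and RUNX2, were below the minimum for testing. SNAI2, a repressor of epithelial genes, was at 9.96, 9.36 and 7.67 scaled TPM in SKNAS and was listed at 0 in LAN-1 (adjusted p = 1.32e-06). NOTCH2, a receptor counted with these factors, was at 22.2, 23.1 and 21.4 against 0.624, 0.596 and 0.931 (log2 difference 3.76, SE 0.13, adjusted p = 6.64e-07). RUNX1 was at 4.40, 4.65 and 4.27 against 0, 0.150 and 0.0335 (log2 difference 2.36, SE 0.12, adjusted p = 3.67e-06). PRRX1, the homeobox factor that defines the mesenchymal state, was at 8.18, 8.52 and 8.01 against 1.01, 1.48 and 0.806 (log2 difference 2.15, SE 0.15, adjusted p = 1.83e-05), and TBX18 was higher by 2.02. These levels were modest beside those of HAND2 in the same libraries. Markers of host fibroblasts, with a summed deposited TPM of 1167 to 1377 in SKNAS and 56.2 to 68.0 in LAN-1, moved with these factors and with the YAP, surface and contractile genes described next, and their part in those differences was not tested.

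Smaller differences in favour of SKNAS were those of MAFF (log2 0.92), IRF1 (log2 0.82), ELK4 (log2 0.78), ID1 (log2 0.75), NR3C1 (log2 0.55), DCAF6 (log2 0.53) and TWIST1 (log2 0.51). JUN and FOSL2, AP-1 factors on the same list, went the other way. JUN was at 10.97, 9.79 and 15.2 scaled TPM in SKNAS and 61.2, 52.8 and 40.9 in LAN-1 (log2 difference -2.02, SE 0.20, adjusted p = 0.000102), and FOSL2 at 2.01, 2.56 and 2.37 and 7.33, 6.21 and 5.46 (log2 difference -1.14, SE 0.15, adjusted p = 0.000388). SMAD3 was also lower (log2 -0.40), and JUNB did not pass (log2 -0.45, adjusted p = 0.0768). Neither did ZEB2, SIX4 and CREG1 (adjusted p = 0.123, 0.856 and 0.0857). JUNB was called lower without the third SKNAS library (adjusted p = 0.00653) and ZEB2 higher without the first (0.0351). ID1 lost its call without the second or the third SKNAS library (adjusted p = 0.0776 and 0.0716), and SMAD3 without the first LAN-1 library (0.0681) or the scaling (0.0976).

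The co-activators YAP1 and WWTR1 (TAZ), which act through TEAD factors, separated the lines. YAP1 was at 30.9, 15.3 and 17.9 scaled TPM in SKNAS and 1.73, 1.41 and 0.913 in LAN-1 (log2 difference 3.20, SE 0.27, adjusted p = 4.62e-05). WWTR1 was at 20.8, 20.2 and 15.7 against 0.718, 0.273 and 0.659 (log2 difference 3.69, SE 0.18, adjusted p = 2.82e-06). Of 15 tested members of this group, 9 were higher and 2 lower (median 1.19). WWTR1 also stands on the list of mesenchymal factors and is counted in both. F3, the tissue factor, was at 79.0, 88.1 and 94.1 against 2.16, 2.71 and 1.88 (log2 difference 4.77, SE 0.13, adjusted p = 3.46e-07), AXL, a receptor kinase, was higher by 2.08, and TEAD2, TEAD3 and TEAD1 by 2.81, log2 1.41 and 0.57. The target genes CRIM1 (log2 1.77) and CCN1 (log2 1.19) were higher too. TEAD4 did not pass (log2 -0.12, adjusted p = 0.282), nor did AJUBA, LATS2 and AMOTL2 (adjusted p = 0.0534, 0.153 and 0.192). The 2 lower members were LATS1 (log2 -1.16), a kinase that restrains YAP, and AMOTL1 (log2 -0.74). TEAD1 was not called when any of 4 libraries was left out (adjusted p up to 0.0866), and CCN1 without the third LAN-1 library (0.0504).

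Among 21 mesenchymal surface and contractile genes, 17 were higher, 0 lower and 4 did not pass (median 1.61). ANXA2 was at 288, 312 and 217 scaled TPM in SKNAS and 6.36, 6.03 and 5.96 in LAN-1 (log2 difference 5.25, SE 0.14, adjusted p = 3e-07), and its binding partner S100A10 at 27.3, 44.4 and 22.3, listed at 0 in LAN-1. LGALS1, a galectin, was at 713, 642 and 525 against 27.9, 39.3 and 29.9 (log2 difference 4.24, SE 0.16, adjusted p = 1.05e-06). S100A11 (log2 4.88), S100A6 (log2 3.92) and the actin crosslinker FLNC (log2 3.62) were higher as well. VIM, the mesenchymal intermediate filament, was expressed in both lines, at 597, 655 and 524 against 181, 231 and 150.3 (log2 difference 1.67, SE 0.17, adjusted p = 0.000107). CD44, the hyaluronan receptor, was low, at 4.21, 4.33 and 3.47 against 0.0265, 0.0576 and 0 (log2 difference 2.28, SE 0.12, adjusted p = 5.2e-06). Of 15 neural crest and Schwann cell precursor genes, 9 were below the minimum. ERBB3, the neuregulin co-receptor, was higher in SKNAS (5.10, 3.50 and 5.89 against 0.0205, 0.0598 and 0.0394), as was ETS1 (log2 3.15), whereas SOX9 (log2 -0.70) was lower and SOX2 was listed at 0 in SKNAS and at 1.74, 1.80 and 1.28 in LAN-1. The count of 2 higher and 3 lower turned to 3 and 2 without the scaling.

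Each line expressed a different MYC gene. MYC (ENSG00000136997), the paralogue of MYCN, was at 23.6, 12.1 and 22.0 scaled TPM in SKNAS and 0.956, 0.225 and 0.156 in LAN-1 (log2 difference 3.79, SE 0.30, adjusted p = 3.58e-05), so the most MYC seen in SKNAS was still far under the level of MYCN in LAN-1. Among the other partners, the repressors MNT (log2 -1.55), MXI1 (log2 -0.96), MXD3 (log2 -0.76) and MXD4 (log2 -0.75) were lower in SKNAS, as was MYCL (log2 -0.41). MLX (log2 0.63), MLXIP (log2 0.56) and MGA (log2 0.40) were higher. MAX, the obligate partner, was at 37.6, 59.2 and 68.1 against 47.1, 52.5 and 49.7 and did not pass (log2 0.10, adjusted p = 0.691), and MXD1 did not pass either (adjusted p = 0.52). Both were called higher without 1 library, MAX the first of SKNAS (adjusted p = 0.0272) and MXD1 the second of LAN-1 (0.0315). MXD3, MYCL and MGA each lost the call when some single libraries were left out (adjusted p up to 0.0982, 0.0845 and 0.0775). The count of 4 higher and 6 lower of 12 turned to 4 and 3 without mitochondrial genes, and to 5 and 4 without the first SKNAS library.

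Genes near MYCN on chromosome 2p were mostly lower in SKNAS too. DDX1 (ENSG00000079785, GRCh37 chromosome 2, 15731302 to 15771235), an RNA helicase often co-amplified with MYCN, was at 165, 154 and 147 scaled TPM in SKNAS and 10429, 10119 and 10656 in LAN-1 (log2 difference -6.06, SE 0.088, adjusted p = 9.94e-08), the highest mean in LAN-1 when mitochondrial and ribosomal protein genes are set aside, though EEF1A1 was higher in the third LAN-1 library (8269, 10023 and 11629 over the 3). MYCNOS, the antisense transcript of MYCN, was listed at 0 in SKNAS and stood at 45.4, 48.5 and 49.1 in LAN-1, and without a stated use of strand its reads and those of MYCN may not have been told apart. In KELLY controls MYCN was at 1642 to 2005 and DDX1 at 182 to 252, so DDX1 was near the SKNAS level there. KCNS3 (log2 -3.96), FAM84A (log2 -2.69) and CYRIA (0 against 5.67, 5.12 and 5.82) were also lower in SKNAS. Of the 13 tested neighbours 8 were lower and 4 higher. ALK, the receptor kinase further along 2p, was listed at 0 in SKNAS and stood at 5.07, 5.49 and 3.52 in LAN-1 (adjusted p = 1.27e-05). ERGIC3, a cargo receptor of the early secretory pathway on chromosome 20 (ENSG00000125991, GRCh37 chromosome 20, 34129770 to 34145405), was the other gene of unusual abundance in LAN-1, at 5991, 6224 and 6851 against 398, 313 and 328 in SKNAS (log2 difference -4.20, SE 0.12, adjusted p = 3.85e-07) and 252 to 485 in KELLY controls.

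Listed targets of MYC and MYCN, which serve ribosome biogenesis, metabolism and the cell cycle, were mostly lower in SKNAS, by small factors. Of 27 tested, 16 were lower, 3 were higher and 8 did not pass, with a median of -0.41. NPM1, a nucleolar chaperone, was at 1588, 1531 and 1361 scaled TPM in SKNAS and 4016, 3882 and 4526 in LAN-1 (log2 difference -1.47, SE 0.11, adjusted p = 2.79e-05). ODC1, the first enzyme of polyamine synthesis, was at 225, 228 and 188 and 492, 484 and 499.7 (log2 difference -1.20, SE 0.10, adjusted p = 3.7e-05). EIF5A (log2 -1.51), FBL (log2 -1.29), NME1 (log2 -1.25) and GNL3 (log2 -0.99) were lower as well. Of 32 cytosolic ribosomal protein genes 27 were lower and 1 was higher (median -0.998), RPS6 at 1089, 1028 and 882 against 3547, 3504 and 4557 among them. The size of both medians depends on the processing. Over the alternatives described at the end, the ribosomal protein median ran from -1.06 to -0.22 and that of the MYC and MYCN targets from -0.48 to -0.059. Ribosomal protein genes together took 11.5% ± 0.480 of the deposited TPM in SKNAS and 20.7% ± 0.944 in LAN-1 (SD, n = 3 each). Many have near-identical processed copies, among which reads may have been split.

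The promoters of 3 of these targets, and of MTHFD1L from the list of serine, asparagine and polyamine synthesis, are shown because MYC family proteins bind the E-box letters CACGTG. Sequences are from RefSeq (GRCh38.p14), on the gene's strand, 5′ to 3′, from the 250 bases before the first listed start, trimmed to 30 bases on either side of the match or to the start, with the match in capitals.
SRM, spermidine synthase, chr1:11060182-11060247 (minus strand): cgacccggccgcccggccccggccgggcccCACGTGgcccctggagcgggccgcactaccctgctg
HSPD1, a mitochondrial chaperonin, chr2:197500327-197500392 (minus strand): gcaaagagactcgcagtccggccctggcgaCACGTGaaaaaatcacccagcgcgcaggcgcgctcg
LDHA, lactate dehydrogenase, chr11:18394348-18394511 (plus strand): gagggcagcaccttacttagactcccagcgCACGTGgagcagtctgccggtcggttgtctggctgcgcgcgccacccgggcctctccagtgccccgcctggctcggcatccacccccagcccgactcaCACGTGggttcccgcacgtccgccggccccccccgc
MTHFD1L, a mitochondrial folate enzyme, chr6:150866302-150866367 (plus strand): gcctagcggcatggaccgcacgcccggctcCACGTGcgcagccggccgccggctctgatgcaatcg
SRM was at 135, 127 and 127 scaled TPM in SKNAS and 224, 229 and 217 in LAN-1 (log2 difference -0.78, SE 0.072, adjusted p = 7.52e-05), and the 4 genes shown were all lower in SKNAS. They were picked by no stated rule from a larger number of promoters with a match, CDK4 among them. Their common direction therefore describes these 4 genes and supports nothing more. Under quantile normalization HSPD1 (log2 difference 0.13, adjusted p = 0.242) and LDHA (adjusted p = 0.995) were not called. Counted over the whole RefSeq window, which runs 50 bases past the start, CACGTG, a palindrome, was found in 10 of the 23 target promoters that matched, out of 28 genes listed (43.5%). FBL and NME1 are among the 10 and hold no match that lies wholly before the start. The share was 7.43% of all 27305 promoters in the table, and 11.3% and 5.99% for matched genes that were lower or higher in SKNAS by at least 1. Promoters were matched for 1697 of 2511 and 1636 of 2614 of those genes, under the 80% that such a comparison needs, so those 2 shares are void as a check. CDK4, with 3 matches, did not pass (log2 0.30, adjusted p = 0.464), but was called higher without the third SKNAS library (log2 0.72, adjusted p = 0.00771). A match is a stretch of letters and says nothing of binding in these tumours.

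Most transcripts on a list of serine, asparagine, proline and polyamine synthesis and of the folate enzymes that carry serine's carbon were lower in SKNAS. Of 18 such genes 11 were lower, 3 higher and 4 did not pass (median -1.16). PHGDH, which starts serine synthesis, was at 80.5, 60.6 and 71.8 scaled TPM against 403, 379.8 and 398 in LAN-1 (log2 difference -2.46, SE 0.11, adjusted p = 2.27e-06), and SHMT2, which passes the carbon unit to folate in mitochondria, at 70.6, 48.1 and 55.6 against 413, 396 and 395 (log2 difference -2.78, SE 0.14, adjusted p = 3.39e-06). MTHFD1L (log2 -1.70), MTHFD2 (log2 -1.69), PYCR1 (log2 -1.63) and ASNS, asparagine synthetase (log2 -1.53), were lower too. Their activator ATF4 was at 238, 265 and 226 against 727, 732 and 811 (log2 difference -1.64, SE 0.094, adjusted p = 6.93e-06).

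Cell cycle genes as a group leaned neither way: 10 of 34 were higher and 11 lower, which turned to 15 and 6 without the scaling and to 11 and 7 without the second SKNAS library. Some regulators differed strongly. CCND1, cyclin D1, was at 3.64, 3.71 and 3.48 scaled TPM in SKNAS and 125, 117.2 and 131 in LAN-1 (log2 difference -4.77, SE 0.092, adjusted p = 1.32e-07). CCNE1, cyclin E1, was at 84.8, 80.4 and 67.5 against 25.4, 30.9 and 19.7 (log2 difference 1.59, SE 0.17, adjusted p = 0.000159). CDKN2C, an inhibitor of CDK4 and CDK6, was at 147, 139 and 125 against 38.5, 39.2 and 42.5 (log2 difference 1.74, SE 0.092, adjusted p = 4.61e-06), while the inhibitor CDKN1C (log2 -3.17) and the mitotic kinase AURKB (log2 -1.998) were lower. Cyclin D1 was thus the higher of the pair in LAN-1 and cyclin E1 in SKNAS.

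Receptors of growth factors were divided, with 9 higher and 9 lower of 22. The receptors named next were all lower in SKNAS, and the 9 higher ones, each by at least 1 on the log2 scale, are not named in this paragraph. Beside ALK, the GDNF family co-receptor GFRA3 (0 against 5.87, 4.90 and 4.80) and the neurotrophin receptor NTRK3 (0 against 1.40, 1.79 and 1.17) were detected in LAN-1 and listed at 0 in SKNAS. FGFR2 (log2 -3.51), GFRA1 (log2 -3.02) and MET (log2 -2.60) were lower in SKNAS as well.

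Genes that are induced by ERK signalling and feed back on it were mostly higher in SKNAS. Of 21, 14 were higher and 2 lower (median 1.62). The PEA3 factors led: ETV4 was at 64.3, 67.8 and 57.1 scaled TPM against 1.43, 1.82 and 1.95 (log2 difference 4.55, SE 0.13, adjusted p = 3.47e-07), ETV5 at 71.5, 65.0 and 62.1 against 2.98, 1.33 and 2.09 (log2 difference 4.45, SE 0.20, adjusted p = 1.98e-06) and ETV1 at 41.6, 49.0 and 35.2 against 3.07, 3.51 and 2.43 (log2 difference 3.42, SE 0.16, adjusted p = 2.86e-06). SPRY4, a Sprouty inhibitor of the pathway, was higher by 3.95. PHLDA1 was higher by 3.34, with 1 SKNAS library well under the other 2 (125, 122.6 and 31.2). CCND1, also an ERK target, was the largest exception.

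Of 19 TGF-beta and BMP genes, 11 were higher and 6 lower. The ligand BMP5 was at 23.7, 24.9 and 19.0 scaled TPM in SKNAS and 0.0460, 0 and 0 in LAN-1 (log2 difference 4.53, SE 0.14, adjusted p = 4.85e-07), and BMP4 was higher by 1.51, whereas BMP7 was at 18.5, 18.6 and 18.8 against 60.1, 61.1 and 56.6 (log2 difference -1.62, SE 0.081, adjusted p = 3.56e-06). The receptor TGFBR2 was higher (5.18, 4.18 and 4.596 against 0.150, 0.283 and 0.159), and the targets SMAD6 (log2 -1.75) and ID4 (log2 -1.499) were lower. In the Notch pathway the receptor NOTCH2 and the target HES1 (log2 2.39) were higher in SKNAS, and the ligands DLL1 (0, 0.0950 and 0.0736 against 21.4, 20.3 and 24.4, log2 -4.44), JAG2 (log2 -3.51) and the non-canonical DLK1 (341, 323 and 375 against 2175, 2416 and 2434, log2 -2.76) were lower. HES4 was listed at 0 in SKNAS and stood at 3.52, 3.22 and 3.70 in LAN-1. The pathway's count of 7 higher and 8 lower turned to 8 and 7 without the scaling.

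Retinoic acid genes held several of the largest differences. ALDH1A3, which makes retinoic acid, was at 136, 127 and 130.3 scaled TPM in SKNAS and 0.356, 0.617 and 0.406 in LAN-1 (log2 difference 6.50, SE 0.11, adjusted p = 1.07e-07). CRABP2, which carries it to the nucleus, was at 625, 587 and 476 against 3.71, 3.32 and 3.12 (log2 difference 6.999, SE 0.12, adjusted p = 1.07e-07), and the receptor RARG at 30.2, 28.7 and 30.2 against 1.70, 1.54 and 1.97 (log2 difference 3.49, SE 0.12, adjusted p = 5.93e-07). STRA6, the retinol uptake receptor (log2 -1.60), and CYP26B1, which degrades retinoic acid (log2 -1.40), were lower. In all 5 of 14 were higher and 6 lower, and 6 and 5 without the scaling. Among 15 IGF genes 9 were higher and 4 lower. IGFBP5 was at 103, 88.6 and 106 against 3.03, 2.41 and 1.89 (log2 difference 4.87, SE 0.15, adjusted p = 4.63e-07). IGFBP4 (log2 2.67) and the adaptor IRS2 (log2 2.28) were higher too, and IGFBP3 (9.71, 13.3 and 6.16 in SKNAS) and IGFBP6 (2.70, 3.64 and 3.93) were listed at 0 in LAN-1. IGF2BP1, an RNA-binding oncofetal protein, was lower (21.0, 21.5 and 24.2 against 99.6, 95.1 and 91.5, log2 -2.05).

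Most matrix genes tested were higher in SKNAS tumours. Of 29 collagen and matrix genes 21 were higher and 4 lower (median 1.79). The 4 lower genes included FN1, fibronectin, at 25.2, 24.4 and 22.7 scaled TPM in SKNAS and 73.1, 54.4 and 64.8 in LAN-1 (log2 -1.37). The others were LOX (log2 -0.91), FBN2 (log2 -0.87) and COL4A2 (log2 -0.84). COL3A1 was at 515, 563 and 619 scaled TPM in SKNAS and 2.27, 1.26 and 0.980 in LAN-1 (log2 difference 7.85, SE 0.19, adjusted p = 2.13e-07). COL1A1, the main fibrillar collagen, was at 277, 339 and 356 against 11.7, 8.605 and 5.55 (log2 difference 5.12, SE 0.23, adjusted p = 2.32e-06). The small proteoglycans LUM (139.8, 118.2 and 98.8 against 1.61, 2.09 and 2.38, log2 5.30) and DCN (85.5, 50.6 and 59.1 against 0.557, 0.829 and 0.613, log2 5.28) and the collagens COL12A1 (log2 4.88) and COL5A2 (log2 4.69) were higher, and COL4A5, of basement membranes, was at 6.98, 8.96 and 8.65 and listed at 0 in LAN-1. KELLY controls held COL1A1 at 43.3 to 137 but LUM at 0 to 0.185 and DCN at 0 to 0.0904.

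Markers of host fibroblasts moved with these genes. Of 14 markers 9 were tested, 8 higher and 1 lower, and their summed deposited TPM was 1167 to 1377 in the SKNAS libraries and 56.2 to 68.0 in LAN-1. The list holds COL1A1, COL3A1, LUM and DCN, which also stand among the matrix genes. The receptors PDGFRA (18.1, 18.3 and 20.7 scaled TPM against 5.48, 5.24 and 5.71) and PDGFRB (25.7, 20.1 and 29.7 against 9.11, 8.49 and 7.48) and the protease FAP (19.3, 20.7 and 18.2 against 2.47, 0.826 and 0) were higher, THY1 was lower (log2 -0.43, not called without the scaling, adjusted p = 0.0746), and MFAP5, PI16, C3, PDPN and CLEC3B stayed under 1 in every library. Removal of mouse reads is not stated in the labels or headers, and the part of host cells in the matrix difference was not tested. In bulk tumours fewer cells of a type and less RNA per cell cannot be told apart.

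Adhesion receptors leaned the same way, with 10 of 19 integrin and laminin genes higher and 2 lower. ITGA4, a fibronectin and VCAM receptor subunit, was at 26.9, 22.4 and 24.9 scaled TPM and listed at 0 in LAN-1. ITGA5, the fibronectin receptor subunit, was at 9.84, 10.6 and 7.81 against 0.145, 0.0204 and 0.0856 (log2 difference 3.26, SE 0.15, adjusted p = 2.08e-06). LAMA2 (log2 3.44), ITGA7 (log2 1.90) and ITGB5 (log2 1.61) were higher, and ITGA9 was lower (0.190, 0.252 and 0.356 against 8.15, 7.60 and 6.90, log2 -2.76).

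Several genes of MHC class I antigen presentation were at or near 0 in LAN-1. Class I molecules display peptides that the proteasome cuts, TAP carries into the endoplasmic reticulum and chaperones load. Of 19 genes tested, 18 were higher in SKNAS and 1 was lower (median 1.60). HLA-B was at 10.5, 15.7 and 8.77 scaled TPM in SKNAS and 0.0659, 0 and 0 in LAN-1 (log2 difference 3.59, SE 0.21, adjusted p = 6.8e-06), HLA-C at 17.5, 21.5 and 17.1 against 3.71, 3.26 and 2.22 (log2 difference 2.29, SE 0.18, adjusted p = 2.98e-05), and HLA-E at 21.7, 25.5 and 24.9 and listed at 0 in LAN-1. HLA genes are near-identical in part, so reads may have been split between them. KELLY controls had HLA-B at 0 to 0.979.

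The invariant chain B2M was present in both lines, at 329, 357 and 287 scaled TPM against 229, 214 and 236 (log2 difference 0.51, SE 0.10, adjusted p = 0.00346). The transporter subunit TAP1 was at 14.5, 15.1 and 12.6 and listed at 0 in LAN-1, and TAP2 was at 9.60, 10.6 and 10.02 against 0.107, 0.0606 and 0.130 (log2 difference 3.33, SE 0.12, adjusted p = 6.82e-07). The inducible proteasome subunits PSMB8 (56.1, 56.0 and 51.4) and PSMB9 (21.4, 23.6 and 17.7) were likewise listed at 0 in all 3 LAN-1 libraries, but the third, PSMB10, was lower in SKNAS at 15.6, 12.7 and 18.5 against 34.7, 27.8 and 29.1 (log2 difference -0.93, SE 0.16, adjusted p = 0.00157). NLRC5, the transactivator of class I genes, was at 6.76, 5.90 and 4.90 against 1.46, 0.868 and 1.45 (log2 difference 1.60, SE 0.17, adjusted p = 0.000154). ERAP2 (log2 1.76), PSME1 (log2 1.25), CALR (log2 0.91), PSME2 (log2 0.77), TAPBP (log2 0.67), TAPBPL (log2 0.56), ERAP1 (log2 0.51) and PDIA3 (log2 0.47) were higher as well. The call of B2M was lost in a fit of all 18 libraries (adjusted p = 0.0836), and that of TAPBPL without the second or the third LAN-1 library (0.0515 and 0.0541). Of 10 class II genes 7 were below the minimum. HLA-DPA1 was at 2.71, 2.56 and 1.32 and listed at 0 in LAN-1, HLA-DMA was higher by 0.75, and the invariant chain CD74 was lower (0.109, 0.613 and 0.419 against 3.46, 5.74 and 4.74, log2 -2.03).

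Interferon-stimulated genes were higher in SKNAS almost throughout. Of 26 tested, 24 were higher in SKNAS and 2 lower (median 2.21). IFI44 was at 135, 135 and 117.7 in SKNAS and 0, 0.185 and 0 in LAN-1 (log2 difference 6.94, SE 0.13, adjusted p = 1.18e-07). IFITM3, a membrane protein that blocks viral entry, was at 175, 178 and 152 against 0.301, 0.576 and 0.227 (log2 difference 6.96, SE 0.13, adjusted p = 1.32e-07), with IFITM2 higher by 4.17 and IFITM1 by 3.91, close copies among which reads may have been split. The RNA sensor OAS3 was at 20.03, 18.3 and 21.3 and listed at 0 in LAN-1, as were IFI44L (8.26, 10.8 and 8.86), OAS1 (3.58, 4.47 and 3.56), IFIT3 (3.70, 3.97 and 4.04), IFIT2 (1.82, 2.96 and 2.38) and MX1 (1.51, 1.21 and 1.65). MX1, IFIT2 and IFIT3, known as strongly induced by interferon, were thus under 5 scaled TPM in SKNAS too. The lower members, named after their values were seen, were ISG15 (5.49, 5.85 and 10.3 against 21.4, 15.95 and 17.8, log2 -1.28) and ISG20 (log2 -0.81).

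Promoters of both groups are shown because interferon-activated factors bind repeats of GAAA, here searched as GAAA, any 2 bases and GAAA again, on either strand, a motif added after the values were seen. Sequences are as above, with matched letters in capitals.
TAP1, chr6:32853793-32853868 (minus strand): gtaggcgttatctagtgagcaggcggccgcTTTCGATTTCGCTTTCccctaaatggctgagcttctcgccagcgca
TAP2, chr6:32838758-32838827 (minus strand): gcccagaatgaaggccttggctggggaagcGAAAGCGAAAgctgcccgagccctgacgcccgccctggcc
B2M, chr15:44711343-44711418 (plus strand): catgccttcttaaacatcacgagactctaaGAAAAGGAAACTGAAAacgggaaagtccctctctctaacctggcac
IFI44, chr1:78649741-78649788 (plus strand): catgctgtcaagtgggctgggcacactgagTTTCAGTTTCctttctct
IFITM3, chr11:320861-320942 (minus strand): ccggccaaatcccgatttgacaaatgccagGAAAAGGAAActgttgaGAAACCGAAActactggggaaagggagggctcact
IFIT3, chr10:89327811-89327914 (plus strand): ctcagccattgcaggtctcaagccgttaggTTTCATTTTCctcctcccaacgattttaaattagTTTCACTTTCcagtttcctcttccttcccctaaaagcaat
ISG15, chr1:1013354-1013429 (plus strand): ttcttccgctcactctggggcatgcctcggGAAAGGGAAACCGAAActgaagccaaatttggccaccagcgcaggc
TAP1 and B2M each hold 2 overlapping matches in 1 stretch, although TAP1 was listed at 0 in LAN-1 and B2M was not. ISG15 holds 2 as well and was lower in SKNAS. The promoters shown were picked by no stated rule from those with a match. Those of HLA-B, HLA-C, PSMB8, PSMB9 and ERAP2, genes also higher in SKNAS, held no match. The same was true of OAS1 and IRF1. The letters were found in 9 of 16 matched class I promoters of 20 genes listed (56.3%) and in 3.65% of all 27305 promoters. Among interferon-stimulated genes 14 of 20 matched promoters held them (70.0%), but 9 of the 29 genes had no promoter in the table, so that share is void as a check.

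Of 8 chemokine and cytokine genes that could be tested, 5 were higher and 2 lower. PTN, the growth factor pleiotrophin, was at 99.6, 99.2 and 84.2 scaled TPM against 1.19, 1.31 and 0.912 (log2 difference 5.48, SE 0.13, adjusted p = 1.89e-07). CXCL12 (log2 2.35), CCL2 (2.99, 4.56 and 2.77 against 0.146, 0 and 0), IL11 (log2 1.31) and IL32 (log2 1.09) were higher at low levels, and CSF1 was lower (log2 -0.93). Ligands of natural killer cell receptors were split between the lines. NECTIN2 was at 53.1, 41.7 and 54.8 against 1.35, 1.25 and 1.25 (log2 difference 4.47, SE 0.14, adjusted p = 4.62e-07), PVR was higher by 1.30 and MICA was listed at 0 in LAN-1 (2.20, 1.53 and 1.29 in SKNAS), but ULBP2 was at 0, 0 and 0.177 against 8.27, 9.76 and 8.62 (log2 difference -3.22, SE 0.13, adjusted p = 1.48e-06). The adaptor MYD88 was higher by 2.66.

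Several genes of the extrinsic death pathway were low in LAN-1, though not all. CASP8, the initiator caspase of death receptors, was at 27.2, 29.4 and 22.7 scaled TPM in SKNAS and 0.739, 0.463 and 0.619 in LAN-1 (log2 difference 4.09, SE 0.14, adjusted p = 7.38e-07). Its regulator CFLAR was at 18.2, 15.6 and 14.1 against 0.0655, 0.0163 and 0.0717 (log2 difference 4.01, SE 0.14, adjusted p = 6.36e-07), and the TRAIL receptor TNFRSF10B at 19.1, 22.1 and 16.98 against 0.613, 1.13 and 0.352 (log2 difference 3.60, SE 0.20, adjusted p = 5.34e-06). GSDMD, which forms the pores of pyroptosis, was at 23.3, 22.9 and 29.8 against 0.0838, 0.0435 and 0.194 (log2 difference 4.57, SE 0.15, adjusted p = 5.51e-07). None of the 4 overlapped between the lines, and CASP8 (0.315 to 0.384) and GSDMD (0.0470 to 0.256) were also low in KELLY controls while TNFRSF10B was not (15.2 to 17.8). Of 14 tested genes of the group 10 were higher and 1 lower (median 1.52). CASP6 (log2 2.40), CASP4 (log2 2.32), MLKL (log2 1.66), RIPK1 (log2 1.39) and TNFRSF21 (log2 0.65) were higher, and FADD and CASP9 did not pass (adjusted p = 0.272 and 0.13). FADD was called higher without the third SKNAS library (log2 0.28, adjusted p = 0.0485). BID, which links death receptors to mitochondria, was lower at 16.2, 15.8 and 17.4 against 52.9, 54.1 and 50.1 (log2 difference -1.61, SE 0.088, adjusted p = 5.2e-06).

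**Figure D3:**
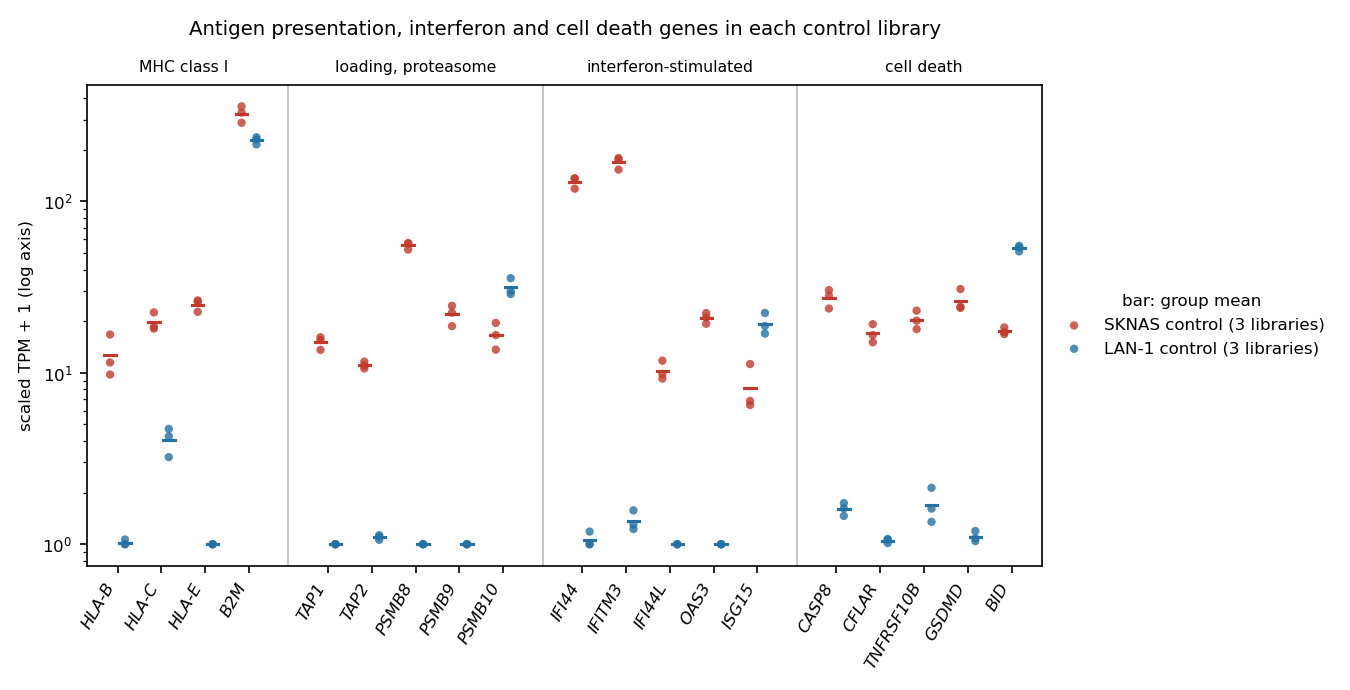
Scaled TPM plus 1 on a log axis for each of the 3 SKNAS (red) and 3 LAN-1 (blue) control libraries, with short bars at the group means, for MHC class I genes, peptide loading and immunoproteasome genes, interferon-stimulated genes and cell death genes. TAP1, PSMB8, PSMB9 and HLA-E sit at 1, that is at a listed value of 0, in all LAN-1 libraries, while PSMB10, ISG15 and BID are higher in LAN-1.

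Of 13 BCL2 family genes 3 were higher and 6 lower, a count that turned to 6 and 3 without mitochondrial genes. The inhibitor BCL2 was higher in SKNAS (25.2, 22.9 and 26.0 scaled TPM against 10.6, 9.21 and 11.8, log2 1.16), whereas BCL2L1 (log2 -0.85), BAD (log2 -0.88) and BBC3 (log2 -1.12) were lower. BCL2L2 was called higher by 1.62 with 27.8, 31.7 and 34.5 in SKNAS and 4.61, 6.86 and 25.2 in LAN-1, where 1 library lay close to SKNAS, and the call was lost when any of 5 libraries was left out (adjusted p up to 0.0918). Of 13 telomere genes 5 were higher and 3 lower, with GAR1 (log2 1.23) and DKC1 (log2 -0.83), both of the telomerase ribonucleoprotein, in opposite directions.

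Genes of GD2 synthesis and of surface molecules used as therapy targets were mostly lower in SKNAS. Of 16 genes 10 were lower in SKNAS and 3 higher. The enzymes that make the ganglioside GD2 act in sequence, and 3 of them are given here. ST3GAL5 was at 6.81, 6.83 and 8.09 scaled TPM against 24.8, 19.2 and 22.6 (log2 difference -1.49, SE 0.13, adjusted p = 6.51e-05), ST8SIA1, the GD3 synthase, at 3.53, 3.51 and 3.78 against 16.6, 14.8 and 13.4 (log2 difference -1.78, SE 0.12, adjusted p = 1.67e-05), and B4GALNT1, the GD2 synthase, at 4.57, 6.07 and 8.22 against 36.4, 31.9 and 30.02 (log2 difference -2.24, SE 0.19, adjusted p = 5.06e-05). PROM1, the stem cell antigen CD133, was higher in SKNAS at 16.01, 12.99 and 15.1 against 0.0837, 0.164 and 0.112 (log2 difference 3.804, SE 0.13, adjusted p = 6.4e-07).

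Cell contact genes differed in both directions. Among 14 cadherins and protocadherins 8 were higher, led by PCDH18 (log2 3.94), CDH12 (log2 3.71), CDH11, a mesenchymal cadherin (19.97, 18.2 and 17.4 scaled TPM against 1.25, 0.767 and 0.954, log2 3.30), and PCDH7 (log2 3.26), and 5 were lower, led by PCDH17 (log2 -3.61) and CDH6 (log2 -2.30). Of 29 axon guidance genes 15 were higher and 10 lower. SEMA3C, a secreted semaphorin, was at 50.6, 56.2 and 40.3 against 0.188, 0.0914 and 0.177 (log2 difference 5.43, SE 0.15, adjusted p = 3.46e-07), the ephrin receptor EPHA3 at 35.04, 32.0 and 27.4 against 1.022, 0.979 and 0.761 (log2 difference 4.07, SE 0.14, adjusted p = 6.39e-07), and ROBO1, a SLIT receptor, was higher by 2.41. SLIT1, a ligand of that receptor, was listed at 0 in SKNAS and stood at 4.23, 4.39 and 4.22 in LAN-1, and UNC5A (log2 -3.65) and SEMA6A (log2 -2.55) were lower. Ion channel genes were more often lower in SKNAS, with 4 higher and 9 lower of 14 tested (median -0.74). Among sodium and calcium channels, SCN9A was at 35.4, 35.2 and 32.4 against 1.24, 1.62 and 1.38 (log2 difference 3.88, SE 0.12, adjusted p = 4.52e-07) and CACNA2D1 was higher by 2.64. SCN3B (log2 -3.43), CACNA1B (log2 -3.26) and the potassium channel KCNMA1 (log2 -3.07) were lower.

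HOX genes, which mark position along the body axis, were detected more in SKNAS. Of 39 genes 29 were below the minimum, and of the 10 tested 9 were higher and 1 lower. HOXC6 was at 9.91, 12.1 and 8.62 scaled TPM against 0.193, 0.228 and 0.0409 (log2 difference 3.27, SE 0.16, adjusted p = 2.84e-06), with HOXC4 (log2 3.27), HOXC9 (log2 2.09), HOXD4 (log2 2.17) and HOXD8 (log2 1.37) higher and HOXD10 lower (0.536, 0.617 and 0.539 against 4.07, 2.77 and 3.78, log2 -1.53). Cancer-testis genes, normally silent outside the germ line, had no common direction (4 higher, 5 lower of 10). MAGEA1 was at 189, 187 and 168 against 0, 0 and 0.0720 (log2 difference 7.47, SE 0.11, adjusted p = 9.94e-08), MAGEA11 was higher by 6.26 and MAGEC1 was at 41.2, 44.0 and 39.8 and listed at 0 in LAN-1. CTAG2 was lower at 130.0, 133 and 133 against 367, 385 and 403 (log2 difference -1.54, SE 0.074, adjusted p = 2.85e-06), as was MAGEA3 (log2 -1.52). Genes of the MAGE and CTAG families are near-identical, and reads may have been split among them. LIN28B, the oncofetal repressor of let-7, was at 0.0910, 0 and 0 against 33.2, 32.0 and 38.2 (log2 difference -5.10, SE 0.13, adjusted p = 2.32e-07), the largest difference among 14 chromatin and RNA regulators tested. EZH2 (log2 0.63) and DNMT1 (log2 0.55) were higher in SKNAS, and the list's 4 higher and 6 lower turned to 5 and 3 without the scaling.

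Hypoxia and glycolysis genes were lower in SKNAS tumours almost throughout. Of 25 tested 20 were lower, 2 higher and 3 did not pass (median -1.36). VEGFA, the angiogenic factor, was at 31.6, 49.9 and 27.0 scaled TPM against 172, 157 and 169 (log2 difference -2.22, SE 0.21, adjusted p = 8.09e-05), and BNIP3, a mitophagy receptor, at 95.8, 90.2 and 71.6 against 402, 376 and 407 (log2 difference -2.20, SE 0.12, adjusted p = 5.17e-06). NDRG1, a strongly hypoxia-induced gene, was at 2.65, 2.38 and 0.952 against 130.0, 77.7 and 41.6 (log2 difference -4.72, SE 0.42, adjusted p = 6.32e-05) and ranged over 3-fold within LAN-1. PFKFB4 (log2 -2.64), ALDOC (log2 -2.45) and ADM (log2 -2.14) were lower as well, and GAPDH, among the most abundant transcripts of both lines, was at 3495, 3018 and 3119.8 against 8150.5, 8228 and 7966 (log2 difference -1.34, SE 0.11, adjusted p = 4.14e-05). The sum of endothelial markers also differed between the lines, at 7.36 to 10.3 deposited TPM in SKNAS and 1.23 to 1.42 in LAN-1, but not every member moved. VWF (0.318, 0.469 and 0.665 scaled TPM in SKNAS against 0.717, 0.438 and 0.573) and KDR (0.120, 0.212 and 0.240 against 0.0909, 0.115 and 0.143) overlapped between the lines. ERG, CLDN5 and PLVAP were at or near 0 in all 6 libraries. TEK and TIE1, below the minimum for testing, were higher in SKNAS without overlap. Only 2 endothelial markers were abundant enough to be tested, and both were higher in SKNAS. CDH5, the cadherin of endothelial junctions, was at 2.78, 1.87 and 2.43 against 0.0297, 0 and 0 (log2 difference 1.73, SE 0.14, adjusted p = 3.47e-05), and ENG, endoglin, at 4.07, 3.07 and 3.50 against 0.386, 0.273 and 0.426 (log2 difference 1.74, SE 0.13, adjusted p = 2.83e-05). Their part in the hypoxia difference was not tested.

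In lipid synthesis 10 of 23 genes were lower and 1 was higher, which turned to 5 and 8 without mitochondrial genes. SCD, the stearoyl-CoA desaturase, was at 151, 118.8 and 115.4 scaled TPM against 419.6, 398 and 365 (log2 difference -1.62, SE 0.12, adjusted p = 2.67e-05), and SREBF2, the regulator of cholesterol synthesis, at 40.3, 33.1 and 40.2 against 113.1, 115.3 and 110.6 (log2 difference -1.56, SE 0.10, adjusted p = 1.16e-05). Genes of the unfolded protein response were divided (7 higher, 9 lower of 18, 9 and 7 without the scaling). Those of the ATF4 arm, DDIT3 (log2 -1.27), CHAC1 (log2 -1.05) and SESN2 (log2 -1.31), were lower, and the chaperone HSPA5 (log2 0.97) and the factor XBP1 (log2 1.18) were higher. Mitochondrial messenger RNAs were higher in SKNAS for 12 of 13 (median 1.42), and MT-ATP6 stood out at 19602, 28734 and 22222 against 2054, 1966 and 1741 (log2 difference 3.60, SE 0.17, adjusted p = 2.65e-06). It has a near-identical pseudogene copy in the nuclear genome, MTATP6P1, which was itself at 1597, 3137 and 2304 against 794, 758 and 655, so reads may have been split. Immediate early genes, which rise with tissue handling, were at 3 higher and 3 lower of 12.

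Markers of other cell types were low but for a few genes. Skeletal muscle, skin, adipocyte and erythroid lists summed to at most 26.9 deposited TPM in any of the 6 libraries, and MYH4, KRT14, TP63 and ADIPOQ were at or near 0. The few members that reached the minimum differed between the lines. The muscle list summed to 9.58 to 14.6 in SKNAS and 2.07 to 3.41 in LAN-1, with the troponins TNNI2 (4.68, 5.27 and 6.49 scaled TPM against 0.191, 0 and 0, log2 2.60) and TNNT3 (1.48, 3.56 and 3.11 against 0.308, 0.504 and 0, log2 1.52) higher. Below the minimum, ACTA1 (mean 0.731 in SKNAS against 0.753), CKM (0.531 against 0.606) and TNNC2 (0.831 against 0.711) overlapped between the lines. MYL1 and DES, also below it, were higher in SKNAS without overlap. The keratin KRT10 was higher (21.0, 25.9 and 16.2 against 1.47, 1.11 and 1.33, log2 3.24), and the keratin KRT17 (0, 0.814 and 0.323 against 9.9999, 18.8 and 16.3, log2 -3.54) and LPL, lipoprotein lipase (0, 0.0358 and 0 against 4.99, 5.51 and 3.97, log2 -2.52), were lower. PTPRC, the pan-leukocyte antigen CD45, was at 96.1, 75.2 and 87.4 in SKNAS and listed at 0 in LAN-1 (adjusted p = 1.42e-07). The monocyte marker CD14 was low but higher in SKNAS, at 1.03, 1.25 and 1.47 against 0.255, 0.126 and 0.389 (log2 difference 0.84, SE 0.14, adjusted p = 0.00135), and CD163, below the minimum for testing, was at 0.438, 0.604 and 0.449 against 0, 0.0224 and 0. Other myeloid markers below the minimum overlapped between the lines. They were CD68 (1.38, 0.0255 and 0.126 in SKNAS against 0.0466, 0.165 and 1.35), CSF1R (0, 0.115 and 0 against 0.0895, 0.076 and 0) and LYZ (0.081, 0.179 and 0.350 against 0.420, 0.311 and 0.155). ITGAM, AIF1 and CD3E were at 0 in all 6 libraries, and TYROBP was at 0 in all SKNAS libraries. With NCAM1, which neuroblastoma cells also express, PTPRC made up most of that list's summed TPM of 109.1 to 177 in SKNAS.

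Differences ran in blocks along chromosomes. Among 274 windows of 10 Mb with at least 20 genes tested, median differences went from -1.32 to 1.13, and 160 were above 0. The highest were chromosome 4 at 110 to 120 Mb (1.13, with 33 genes higher and 3 lower of 42), chromosome 2 at 180 to 190 Mb (1.12) and chromosome 7 at 20 to 30 Mb (1.08). Genes with the largest differences there were CFI, a complement protease (32.5, 27.6 and 34.6 scaled TPM in SKNAS, listed at 0 in LAN-1), SYNPO2 (log2 4.20) and FAM241A (log2 3.78) on chromosome 4. On chromosome 2 they were COL3A1, COL5A2 and ITGA4, and on chromosome 7 SNX10 (log2 6.15), CDCA7L (54.1, 57.8 and 46.5 in SKNAS, listed at 0 in LAN-1) and GPNMB (log2 4.19).

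The lowest window lay on chromosome 19 at 20 to 30 Mb (-1.32, 3 higher and 31 lower of 41) and holds a cluster of KRAB zinc finger genes. ZNF737 was at 0.0437, 0 and 0.126 scaled TPM in SKNAS and 29.7, 25.3 and 32.6 in LAN-1 (log2 difference -4.83, SE 0.14, adjusted p = 3.86e-07), and ZNF486 and ZNF90 were listed at 0 in SKNAS against 21.2, 18.1 and 21.9 and 21.4, 15.8 and 15.6. Such genes are close copies, among which reads may have been split. The windows of chromosome 22 from 40 to 50 Mb (-1.23, 4 higher and 74 lower of 89) and from 50 Mb to the end (-1.26, 1 and 25 of 30) followed, with TAFA5 (0 against 18.04, 16.2 and 14.2), MCHR1 (log2 -3.42), PHF21B (log2 -3.22), MAPK8IP2 (log2 -3.85), PIM3 (log2 -2.995) and PANX2 (log2 -2.36). Runs of at least 5 successive windows beyond 0.4 in the same direction, a rule set after the medians were seen that passed over windows with fewer than 20 genes tested, were negative on chromosome 3 from 0 to 60 Mb (24 genes higher, 269 lower), 6 from 110 to 170 Mb (33 and 146), 11 from 70 to 130 Mb (38 and 177) and 13 from 20 to 120 Mb (26 and 169). The run on chromosome 4 from 100 to 160 Mb was positive (128 and 21). The window at 130 to 140 Mb was passed over on chromosome 4, and those at 60 to 70 and 80 to 90 Mb on chromosome 13, so neither holds 5 windows that adjoin. Coordinates are those of the files, read as GRCh37, and the files hold no measure of copy number.

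**Figure D4:**
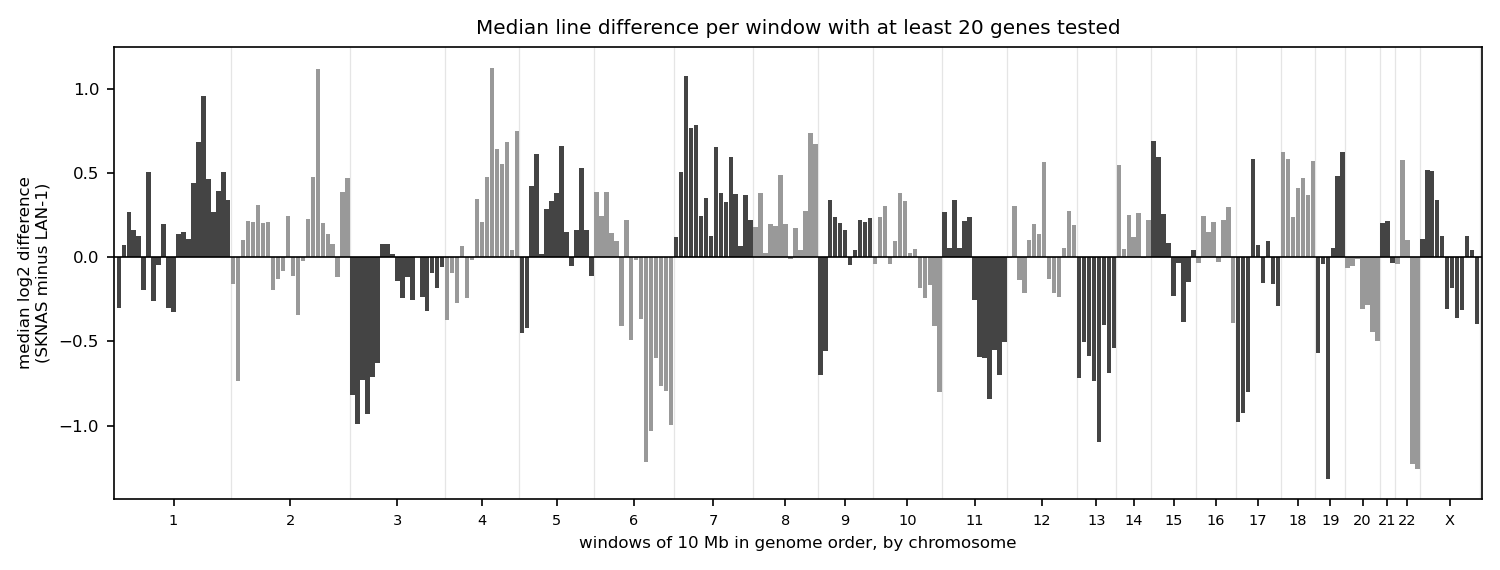
Median log2 difference (SKNAS minus LAN-1) of the genes tested in each 10 Mb window with at least 20 such genes, in genome order with alternating shades per chromosome. Neighbouring windows share their sign over long stretches, as on the first part of chromosome 3 and the last parts of 6, 11 and 22, and medians reach from -1.32 to 1.13.

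The same lines could be compared in other libraries, the 3 Hmx1 libraries of each, which the fit of the 6 control libraries did not use. There 5439 of the same genes were higher in SKNAS (32.8%) and 4698 lower (28.4%), 61.2% in all. Of 5125 genes called by at least 1 in the controls, 4697 (91.6%) were called in the same direction and 22 in the opposite one. MYCN (-9.65), DDX1 (-5.91), GATA2 (-4.81), TH (-5.54), YAP1 (3.12), HLA-B (4.62), CASP8 (3.38), ETV4 (3.81) and COL3A1 (7.11) were all called there with the sign they had in the controls.

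The line difference itself differed between the arms for 1491 genes (9.0% of those tested, interaction term over 12 libraries). CCL2 had a difference of 2.06 in the controls and 7.45 in the Hmx1 libraries (interaction adjusted p = 9.78e-07). BMP5 went from 4.53 to 1.43 (4.83e-06), EPHA3 from 4.07 to 0.70 (1.12e-05) and CCND1 from -4.77 to -2.42 (7.31e-06). LHX8 went from 0.67 to 3.53 (1.32e-05). MAGEA3 changed sign, from -1.52 to 2.28 (4.83e-06). CHGA, lower in the SKNAS controls, did not pass in the Hmx1 libraries (-0.11, adjusted p = 0.542), and the interaction term passed (0.000593).

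**Figure D5:**
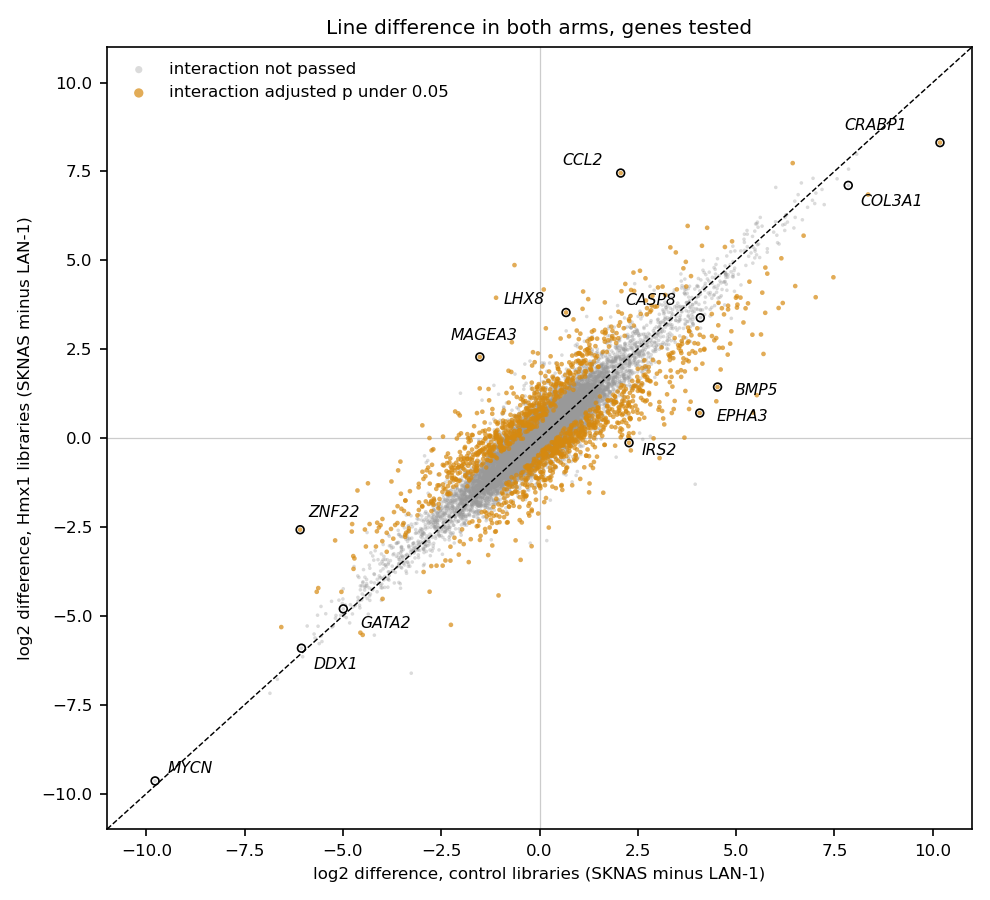
Log2 difference between SKNAS and LAN-1 in the control libraries (horizontal axis) and in the Hmx1 libraries (vertical axis) for the genes tested, with 1491 genes that passed the interaction test in orange, the line of equal differences dashed and a few named genes circled. Most genes lie along the dashed line, MYCN and DDX1 at its lower end, while CCL2, MAGEA3, LHX8, ZNF22, IRS2, EPHA3 and BMP5 lie away from it.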

How the data were processed

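Stranded poly(A) RNA from xenograft tumours was sequenced, per the labels' protocols, and the authors deposited 1 gene table per library with TPM, FPKM and coverage columns, per the file headers. The submitters' processing notes name bcl2fastq, STAR, FastQC, GRCh38.p12 and GRCh37 with no role, and the tool that made the tables, its use of strand and any removal of mouse reads were not given in the labels or headers. Gene ends in the files fit GRCh37. Deposited TPM was scaled by median ratios over 12899 genes with at least 1 TPM in all 6 libraries. Then log2(scaled TPM + 1) of the 16569 genes with at least 1 TPM in at least 3 libraries was fitted with limma 3.58.1 (R 4.3.3, trended prior, Benjamini-Hochberg adjustment). The deposited FPKM served as an alternative, and the coverage signal, as deposited, was not used for tests. The script was tested on simulated data. Members and lists were chosen with earlier results of these data known. Genes were named by rule: the 12 largest differences in each direction, every tested member of the lists on noradrenergic, catecholamine, mesenchymal factor, YAP, MYC, MHC class I and death genes, up to 6 called members and any gene at 0 in 1 line in other lists, 3 genes of each extreme window, and the 6 most abundant genes per line outside mitochondrial and ribosomal protein genes. Some members of these lists enter the counts but are not reported here by name. Markers used to check the labels were named besides. Alternatives varied the scaling, pseudocount, minimum, unit, fit and libraries. Promoters come from RefSeq (GRCh38.p14).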

Additional observations from a re-analysis of the deposited data

Results flagged for a closer look

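The difference between SKNAS and LAN-1 was itself tested for a difference between the control and the Hmx1 libraries, with an interaction term in limma over 12 libraries, adjusted over all genes tested, of which 9.0% passed. The genes named above that passed are given here with the interaction, which is the log2 difference between the lines in the Hmx1 libraries minus that in the controls, so that a positive value means a difference more in favour of SKNAS in the Hmx1 libraries. For neuronal and sympathetic identity it was positive for LHX8 (2.86), CHGA (1.68), DDC (1.63), CYB561 (1.47), TUBB4A (1.31) and INA (0.68) and negative for TFAP2B (-1.81), TUBB2B (-1.54), SLC5A7 (-1.47), ZNF536 (-1.21), LMO1 (-1.15), TH (-1.07), INSM1 (-1.02) and CHAT (-0.87). Among mesenchymal, matrix and adhesion genes it was positive for ITGA9 (0.96), CRIM1 (0.82) and TEAD4 (0.44) and negative for LAMA2 (-2.37), COL12A1 (-1.87), LUM (-1.51), COL5A2 (-1.20), SIX4 (-1.12), SNAI2 (-0.97) and RUNX1 (-0.73). In growth, MYC partners and metabolism it was positive for CCND1 (2.33), MXI1 (0.73) and SRM (0.47) and negative for MT-ATP6 (-1.70), MYC (-1.61), MXD1 (-1.48), PHGDH (-1.14) and HSPA5 (-1.09). For signalling it was positive for BMP7 (0.70) and negative for BMP5 (-3.07), IRS2 (-2.42), IGF2BP1 (-1.24), NOTCH2 (-1.07), DLK1 (-0.86), ETV4 (-0.74) and IGFBP4 (-0.49). Within antigen presentation and interferon it was positive for CD74 (2.64) and HLA-DPA1 (1.17) and negative for PSMB9 (-1.67), ISG20 (-1.58), TAP2 (-1.42), HLA-C (-1.40), PSMB8 (-1.14), IFI44L (-0.94) and PSME1 (-0.89). For cytokines and leukocyte antigen it was positive for CCL2 (5.42), IL32 (2.55), PTPRC (1.33) and CSF1 (1.20). For markers of other cell types it was positive for KRT17 (2.85) and negative for ENG (-1.28) and TNNI2 (-1.04). Among cell death and telomere genes it was positive for DKC1 (0.60) and negative for BCL2L2 (-3.17) and CASP6 (-0.94). In surface, guidance and channels it was positive for SEMA6A (1.51) and KCNMA1 (1.03) and negative for EPHA3 (-3.36), CDH12 (-2.37), PROM1 (-1.40) and ST8SIA1 (-0.61). For cancer-testis genes and chromatin it was positive for MAGEA3 (3.79) and negative for MAGEA1 (-2.92), MAGEC1 (-2.48) and EZH2 (-0.38). Within genes named for the size of their difference or their window it was positive for ZNF22 (3.48), NUDT11 (1.38) and CRH (1.21) and negative for MYOC (-3.03), CRABP1 (-1.85), GPNMB (-1.68), MEST (-1.49), CFI (-1.32), SNX10 (-1.06), CDCA7L (-0.92) and FAM241A (-0.67).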

How the results depend on the processing

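No paired analysis was possible because the labels number each library on its own and the lines share no replicate number. Over 17 alternatives, the 6 that leave out a library included, 305 of 343 named genes kept their direction and their side of the threshold. The direction turned without mitochondrial genes for GCH1 (0.0673), HAND2 (0.0127), MEIS2 (0.0107), LATS2 (0.017), CREG1 (0.12), SIX4 (0.28) and TEAD4 (0.22). It turned without the scaling for SIX4 (0.11) and TEAD4 (0.0374), and under quantile normalization for HSPD1 (0.13). Without 1 library it turned for MAX (from -0.067 to 0.35 over the libraries left out), SIX4 (from -0.15 to 0.0442) and MXD1 (from -0.038 to 0.69). With the direction kept, the call was lost under at least 1 alternative for 21 genes and gained for 13. Genes called higher numbered 4895 to 5276 and lower 4606 to 4897 when 1 library was left out. Calls of at least 1 in favour of SKNAS fell to 1738 with a minimum of 5 TPM, which tests fewer genes (12495). Without the scaling the window medians were 1.28 (chromosome 4), 1.29 (chromosome 2), 1.20 (chromosome 7), -1.10 (chromosome 22, 40 to 50 Mb), -1.10 (chromosome 22, from 50 Mb) and -1.17 (chromosome 19). With a minimum of 5 TPM they were 1.23 on chromosome 4, 0.90 on chromosome 7, -1.41 on chromosome 22 from 40 to 50 Mb and -1.08 on chromosome 19. Leaving out 1 library moved them between 1.07 and 1.20, 0.99 and 1.17, 0.94 and 1.10, -1.30 and -1.20, -1.33 and -1.14, and -1.43 and -1.21 in that order. The cause of these shifts was not tested. Of 50 lists with a tested member, 10 changed the direction of most of their calls under some alternative, as given beside those described. Reads per library are unknown, so no counting error can be set beside low values.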
